A study of Mus musculus with 15 samples.

Results

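Mir-215, mir-194 and mir-192 are miRNAs made from hairpins that lie in pairs, mir-194-1 beside mir-215 and mir-194-2 beside mir-192. Both arms of these hairpins were followed in left ventricular (LV) tissue of 15 mice, which gave 8 of the 1836 rows in the table of miRNA counts. Mir-215-5p was chosen by its fall from wt to AGAT-/- mice in these same libraries, so that this fall is a description and was not tested again. The other 7 rows were chosen by name. They were used to see whether the mir-194 partner and the sister hairpins followed it.

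AGAT (arginine:glycine amidinotransferase) forms homoarginine and the precursor of creatine. The 3 groups held 5 mice each, all of a C57BL/6J background and bred as littermates. The groups were wt mice, untreated AGAT-/- mice, and AGAT-/- mice that received homoarginine from osmotic mini pumps for 4 weeks (AGAT-/-hArg). Each mouse gave 1 library from its own LV, and no age is given in the sources used here. The wt and AGAT-/- libraries are labelled lane 8 and the AGAT-/-hArg libraries lane 2, so supplementation and lane cannot be told apart.

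Primary transcripts that carry 2 miRNA hairpins are cut by Drosha and then by Dicer, and neighbours made from 1 transcript can rise and fall together. Of each hairpin, 1 arm usually stays bound to Argonaute as the guide, which pairs with target mRNAs through its seed, and the other arm is mostly lost. Mir-192, mir-194 and mir-215 are known from epithelia of gut, liver and kidney, where hepatocyte nuclear factors drive them. They are also known as miRNAs that p53 can induce.

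The mature sequences, from RefSeq on GRCm38.p6 and with the seed (bases 2 to 8) in capitals, show which rows could share targets and which could share reads. All 8 rows matched a sequence.

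mir-215-5p: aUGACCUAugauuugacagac

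mir-192-5p: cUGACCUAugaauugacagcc

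mir-194-1-5p and mir-194-2-5p: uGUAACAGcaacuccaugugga

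mir-194-1-3p: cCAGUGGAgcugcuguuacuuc

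mir-194-2-3p: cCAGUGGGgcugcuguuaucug

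mir-215-3p: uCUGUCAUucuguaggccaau

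mir-192-3p: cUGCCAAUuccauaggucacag

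Mir-215-5p and mir-192-5p carried the same seed, and no other row with a matched sequence shared it. They were the same at 18 of 21 bases and differed by A1C, U12A and A20C, where the mir-215-5p base comes first, then the position from the 5′ end, then the mir-192-5p base. Their longest shared run was 10 bases. The guide arm of mir-194 was identical in both hairpins over 22 bases, so its reads cannot be assigned to chromosome 1 or 19. The 3p arms of the mir-194 hairpins differed by A8G, C19U, U20C and C22G, with the mir-194-1-3p base first, and do tell the hairpins apart. Mir-215-3p and mir-192-3p shared a run of only 6 bases.

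The hairpins themselves are shown with both arms in capitals, since the results rest on which arm of which hairpin held reads.

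Mir194-1: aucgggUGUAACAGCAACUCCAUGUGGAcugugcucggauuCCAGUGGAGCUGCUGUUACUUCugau

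Mir215: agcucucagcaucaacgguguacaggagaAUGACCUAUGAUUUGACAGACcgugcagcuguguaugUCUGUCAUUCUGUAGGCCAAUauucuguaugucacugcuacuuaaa

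Mir194-2: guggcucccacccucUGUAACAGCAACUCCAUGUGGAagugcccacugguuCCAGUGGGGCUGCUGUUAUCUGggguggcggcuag

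Mir192: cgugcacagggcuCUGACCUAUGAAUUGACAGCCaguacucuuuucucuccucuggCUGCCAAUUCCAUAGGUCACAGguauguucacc

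Mir194-1 (chr1:185313319-185313385, plus strand, GRCm38) and Mir215 (chr1:185313581-185313692, plus strand) were separated by 195 bases. In the GENCODE M21 annotation both lie within 2010103J01Rik, a non-coding transcript of the plus strand (185312187 to 185313803). Mir215 falls in its exon (185313530 to 185313803) and Mir194-1 in its intron. Both are antisense to an intron of Iars2, the gene of a mitochondrial isoleucyl-tRNA synthetase (185284726 to 185329396, minus strand). Mir194-2 (chr19:6264643-6264728) and Mir192 (chr19:6264844-6264932) were 115 bases apart on the plus strand and overlapped no other annotated gene.

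Reads lay almost entirely on 1 row. Over the 15 libraries, mir-215-5p held 13967 reads, mir-215-3p 91, mir-194-1-3p 22 and mir-194-2-5p 2. Mir-194-1-5p, mir-194-2-3p, mir-192-5p and mir-192-3p were listed at 0 in every library. The guide arm of mir-194 thus held 2 reads over its 2 rows, 1 in an AGAT-/- and 1 in an AGAT-/-hArg library, and neither arm of mir-192 held any.

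**Figure D1:**
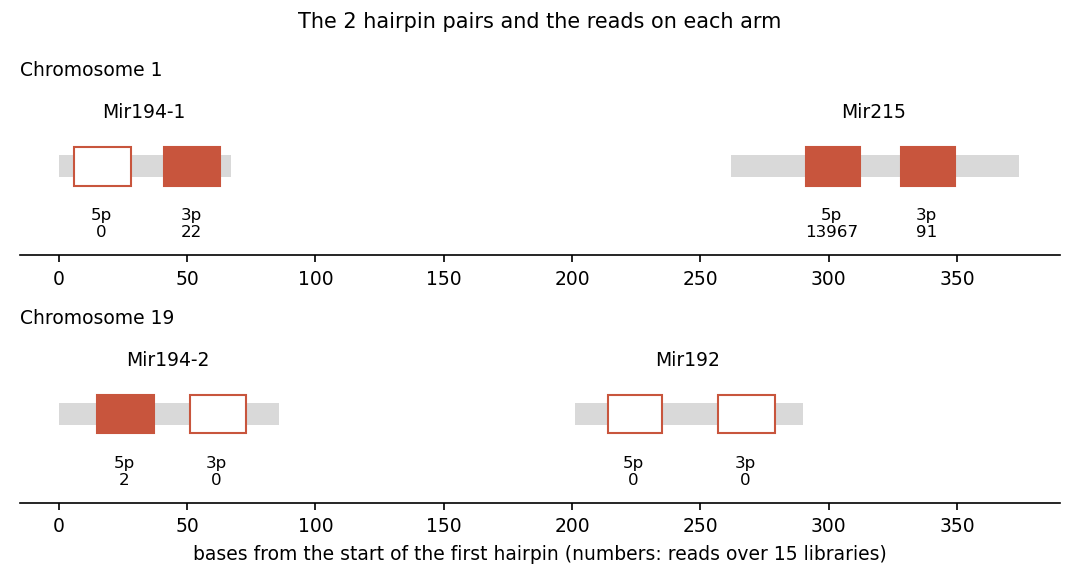
Map of the hairpin pairs on chromosomes 1 (top) and 19 (bottom), drawn to scale in bases from the start of the first hairpin of each pair. Grey bars are hairpins and boxes are mature arms, filled where the row held reads; the numbers are reads over the 15 libraries. Of the 8 arms, 4 held reads, and mir-215-5p had 13967 of them.

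A row at 0 does not show that a miRNA was absent from the LV. Of the 918 precursors in the table, 248 had 1 arm at 0 in every library and more than 10 reads on the other. The 3p arms of mir-1a and mir-133a, the guides of the main cardiac muscle miRNAs, were among the rows at 0. Mir-34c-5p and mir-107-3p, which the study lists as significantly lower in AGAT-/- mice, also held no reads in the table used here. A row at 0 is therefore given as listed, with no upper limit on the level of the miRNA. The number of mismatches allowed in mapping is not given in the sources used here, and whether reads of mir-192-5p were counted as mir-215-5p was not tested.

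The libraries held between 365634 and 570492 reads over the rows of the table, so that 3 reads were worth between 5.26 and 8.20 CPM (counts set to an equal total in every library). The mice of a group could not be taken for repeats of a single library, since in all 30 within-group pairs the chi-square exceeded its degrees of freedom by a factor of at least 2.54 and at most 16.8. Of the cardiac muscle markers, 6 of 14 rows were at 0 (the 3p arms of mir-1a, mir-133a, mir-208a and mir-208b). The other 8 together reached between 1795 and 2106 CPM in wt, 1923 and 2495 CPM in AGAT-/- and 1998 and 2375 CPM in AGAT-/-hArg libraries.

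Among the rows that held reads, mir-215-5p ranked 21st in wt LV and took 0.263% of the wt reads. Guide arms such as those of mir-1a and mir-133a were at 0, so this is not a rank among all LV miRNAs. In wt mice 1 to 5 mir-215-5p was at 2783, 2647, 2691, 2846 and 2613 CPM after TMM normalization. In AGAT-/- mice 6 to 10 it was at 1873, 1660, 1735, 1621 and 1506 CPM. In AGAT-/-hArg mice 11 to 15 it was at 1596, 2024, 1977, 1708 and 1589 CPM. Every mouse that lacked AGAT, with or without homoarginine, lay below every wt mouse, while the AGAT-/- and AGAT-/-hArg mice overlapped. Mice 12 and 13 of the AGAT-/-hArg group were above all 5 AGAT-/- mice, and the other 3 lay within their range.

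**Figure D2:**
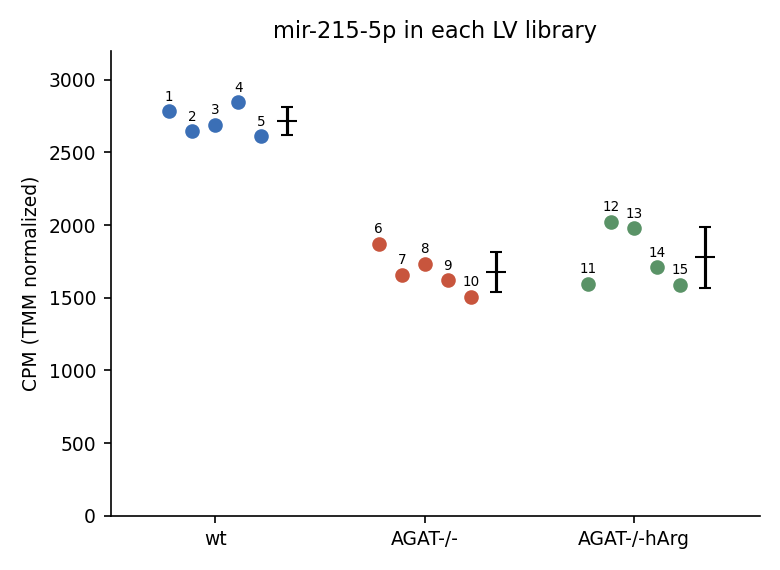
Level of mir-215-5p in each library, in CPM after TMM normalization, for 5 wt, 5 AGAT-/- and 5 AGAT-/-hArg mice. Each point is a mouse with its number, and the bars give the mean ± SD of the group. The lowest wt mouse was at 2613 CPM and the highest mouse of the other groups at 2024 CPM.

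The group means were 2716 ± 96.5 CPM in wt, 1679 ± 136 CPM in AGAT-/- and 1779 ± 208 CPM in AGAT-/-hArg mice (SD, n = 5 each). AGAT-/- mice were at 61.3% of the wt level (log2 fold change -0.71, standard error 0.08). This difference chose the miRNA and is given without a test. In whole LV tissue, fewer cells that make a miRNA and less of it per cell cannot be told apart. Of the 562 rows tested in this comparison, 5 (0.89%) were lower in AGAT-/- mice without overlap of the groups, and 12 (2.14%) passed the FDR in either direction. Mir-215-5p belonged to both sets by its choice.

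AGAT-/- mice with and without homoarginine, whose libraries also differ in lane, were compared next. Mir-215-5p was at 1779 CPM with and 1679 CPM without homoarginine (log2 fold change 0.09, standard error 0.09, 95% interval -0.10 to 0.28, FDR = 0.929, edgeR's quasi-likelihood test). The difference was within the spread between mice. Of the 580 rows tested, 4 (0.69%) passed the FDR in this comparison, and none of them was a mir-215, mir-194 or mir-192 row; the counts were 43 at an unadjusted p below 0.05 and 5 with DESeq2. These are the AGAT-/- libraries that also chose mir-215-5p.

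Against wt mice, AGAT-/-hArg mice were at 65.6% for mir-215-5p (log2 fold change -0.61, standard error 0.09, 95% interval -0.80 to -0.41, FDR = 0.000270, edgeR), lower in 5 of 5 mice. The FDR lay between 1.78e-09 and 0.0129 over 11 other settings, and passed with each mouse left out. Here 8 of 569 rows (1.41%) were lower at the FDR and 9 higher, whereas scaling by total counts instead of TMM left 8 lower and gave 16 higher. The groups did not overlap for 12 of the 569 rows (2.11%) that were lower in AGAT-/-hArg mice. The wt libraries are those that chose mir-215-5p, so the comparison is not independent of that choice. It also crosses lanes, whereas AGAT-/- and wt mice were sequenced on 1 lane.

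The spread of mir-215-5p between mice is given as a description, since a choice by the difference of AGAT-/- and wt mice favours rows with a small spread in these libraries. In wt mice its CV was 3.55%, where reads alone would give 2.92%. Of the 177 rows with more than 10 reads in every library, 5 varied less in wt mice, and the median row had a CV of 14.2%. The CV was 8.12% in AGAT-/- mice, where 34 rows varied less, and 11.7% in AGAT-/-hArg mice, where 70 did, and the difference in spread between the groups was not tested. The rows next to it in mean wt level were mir-582-3p at 2770 ± 2619 CPM and mir-1843a-5p at 2635 ± 412 CPM (SD, n = 5 each). The log2 fold changes of these neighbours in AGAT-/- against wt mice were -0.13 (standard error 0.54, FDR = 0.971, edgeR) and -0.09 (standard error 0.10, FDR = 0.879, edgeR).

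**Figure D3:**
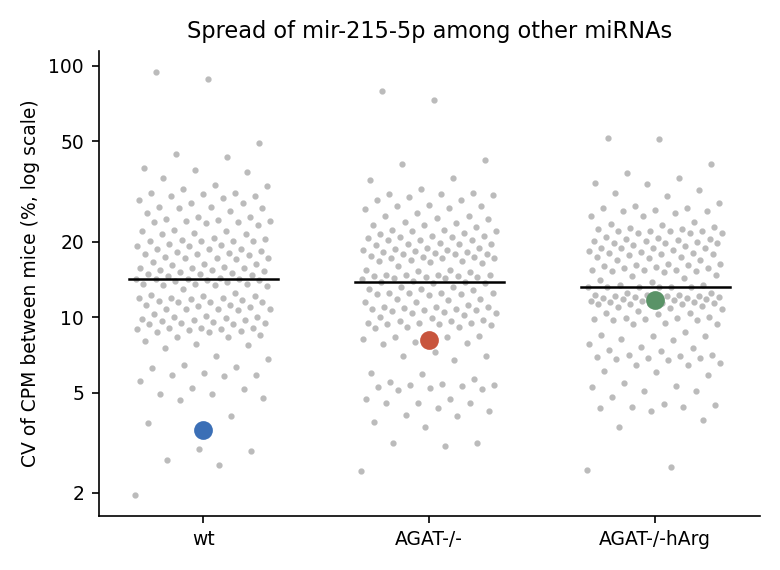
Coefficient of variation of CPM between the 5 mice of each group, in percent on a log axis, for the 177 miRNAs with more than 10 reads in each library. Grey points are single miRNAs, black lines their medians and large points mir-215-5p. It lies at 3.55% in wt, 8.12% in AGAT-/- and 11.7% in AGAT-/-hArg mice, against medians of 14.2%, 13.8% and 13.2%.

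Mir-215-3p, the other arm of the same hairpin, had few reads, and its difference between AGAT-/- and wt mice did not pass the FDR. Wt mice 1 to 5 had 12, 9, 6, 5 and 11 reads. AGAT-/- mice 6 to 10 had 3, 9, 3, 1 and 2 reads. AGAT-/-hArg mice 11 to 15 had 7, 12, 4, 3 and 4 reads. In reads, AGAT-/- mouse 7 lay within the range of the wt mice and the other 4 below it. Mice 11 and 12 of the AGAT-/-hArg group lay within the wt range.

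In CPM these reads gave 19.9 ± 7.08 in wt, 7.55 ± 5.10 in AGAT-/- and 11.9 ± 5.18 in AGAT-/-hArg mice (SD, n = 5 each). AGAT-/- against wt mice gave a log2 fold change of -1.32 (standard error 0.43, unadjusted p = 0.00625, FDR = 0.167, edgeR). Without AGAT-/- mouse 7 it was -1.87 and passed (FDR = 0.0390, edgeR), the only one of 10 fits that each left out a mouse to do so. An unadjusted p below 0.05 with a lower level in AGAT-/- mice was found for 29 of the 562 rows (5.16%). For AGAT-/-hArg mice the log2 fold change was 0.64 against AGAT-/- mice (FDR = 0.872, standard error 0.46, edgeR) and -0.68 against wt mice (FDR = 0.473, standard error 0.36, edgeR). Neither difference passed.

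The 3p arm made up a small part of the mir-215 reads in every mouse. Its share of both arms was 0.727% in wt mice (95% exact binomial interval 0.527% to 0.978%, 43 of 5912 reads). It was 0.472% in AGAT-/- mice (interval 0.280% to 0.745%, 18 of 3814 reads) and 0.693% in AGAT-/-hArg mice (interval 0.468% to 0.987%, 30 of 4332 reads). The intervals cover counting error only and overlap between the groups.

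Mir-194-1-3p, from the hairpin 195 bases before mir-215 on the same strand, was the only mir-194 row with enough reads to be tested. Wt mice 1 to 5 had 1, 3, 3, 4 and 1 reads. AGAT-/- mice 6 to 10 had 0, 1, 1, 2 and 0 reads. AGAT-/-hArg mice 11 to 15 had 3, 1, 1, 1 and 0 reads. The groups overlapped, and only wt mouse 4 was above 3 reads.

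**Figure D4:**
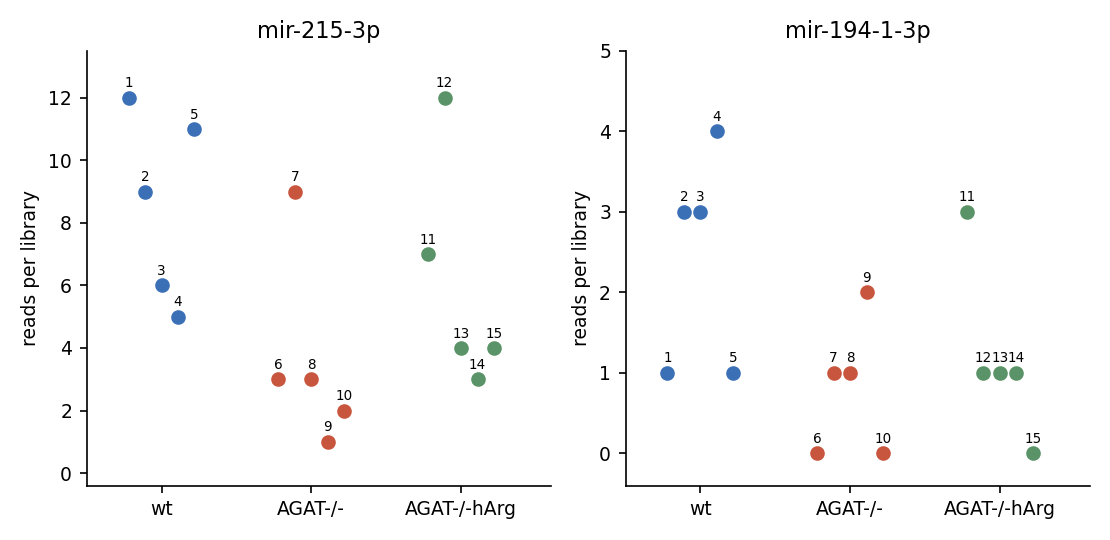
Reads per library of mir-215-3p (left) and mir-194-1-3p (right) in wt, AGAT-/- and AGAT-/-hArg mice, without normalization. Each point is a mouse with its number. Mir-215-3p had between 5 and 12 reads in wt and between 1 and 9 in AGAT-/- mice, and mir-194-1-3p between 1 and 4 and between 0 and 2.

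Summed over the mice, mir-194-1-3p had 12 reads in wt, 4 in AGAT-/- and 6 in AGAT-/-hArg mice. The ratio of AGAT-/- to wt mice, corrected for library size and composition, was 0.318 with a 95% counting interval of 0.0747 to 1.05. The same ratio of mir-215-5p, 0.616, lies within this interval, and so does 1. The fit gave -1.52 on the log2 scale (standard error 0.71, 95% interval -3.02 to -0.03, unadjusted p = 0.0455, FDR = 0.434, edgeR). At such counts that size depends on the fit's prior count. Without correction for the number of rows tested, the interval of the fit leaves out no change, whereas the counting interval holds it. The row entered the test, which needs more than 10 reads, only through its wt reads, and such a filter favours a lower value against wt mice. It did not pass with any mouse left out (FDR between 0.318 and 0.698, edgeR) or in any of 9 other fits (FDR between 0.388 and 0.867). At this depth, neither a fall of mir-194-1-3p of the size of that of mir-215-5p nor its absence was detectable.

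Between AGAT-/-hArg and wt mice, the ratio of summed mir-194-1-3p reads was 0.449 with a counting interval of 0.138 to 1.29 (FDR = 0.566, edgeR). Here too the row passed the filter only through its wt reads, which favours a lower value against wt mice. With 10 reads over the AGAT-/- and AGAT-/-hArg libraries, it was not tested between these groups. The guide arm of mir-194 and all rows of the chromosome 19 pair had too few reads for any comparison. Of the 8 rows, 5 were therefore without a test between AGAT-/- and wt mice, 4 of them at 0, and whether the mir-194 guide followed mir-215-5p could not be measured in these counts.

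**Figure D5:**
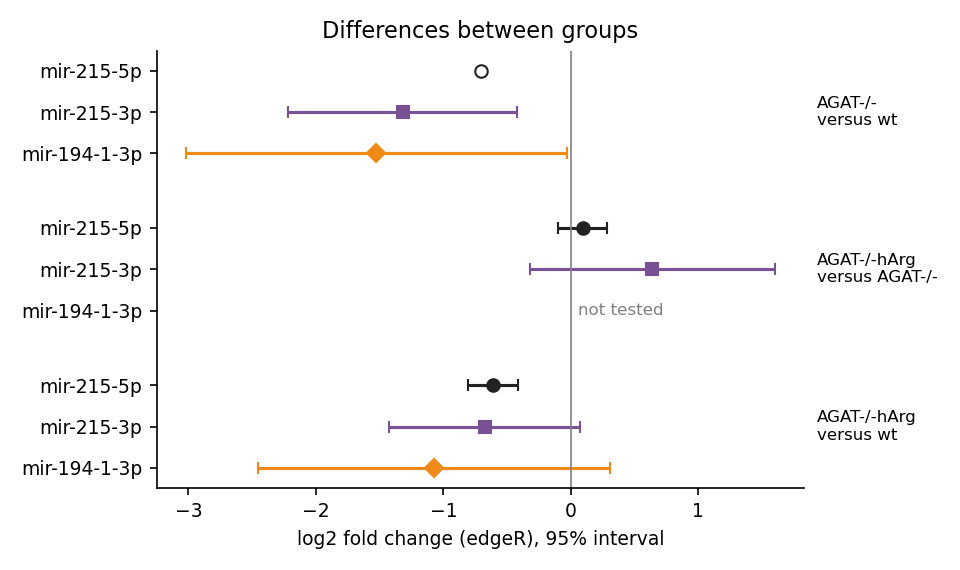
Log2 fold changes from edgeR with 95% intervals for the rows with enough reads, in the comparisons of AGAT-/- with wt, AGAT-/-hArg with AGAT-/- and AGAT-/-hArg with wt mice. Circles are mir-215-5p, squares mir-215-3p and diamonds mir-194-1-3p; the open circle has no interval because that difference chose the miRNA. Mir-215-5p lies at -0.71, 0.09 and -0.61, and the intervals of the other rows are wider.

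Across the 15 libraries, log2 CPM of mir-215-5p and mir-215-3p had a Pearson r of 0.67 (Spearman's rho 0.61), and that of mir-215-5p and mir-194-1-3p 0.54 (rho 0.46). These values are descriptions, since the points share libraries and the groups differ in level. Among the 176 other rows with more than 10 reads in every library, 5 were most like mir-215-5p. They were mir-1981-5p (r = 0.80), mir-1983-3p (r = 0.77), mir-21a-5p (r = 0.71), mir-8114-3p (r = 0.59) and mir-700-5p (r = 0.58). Mir-21a-5p, a miRNA known from fibroblasts and injured tissue, was at a mean of 216 CPM in wt, 174 CPM in AGAT-/- and 160 CPM in AGAT-/-hArg mice. Its log2 fold change of AGAT-/- against wt mice was -0.33 (FDR = 0.314, edgeR). Mir-1981-5p was at 115, 83.0 and 74.6 CPM in the same order (log2 fold change -0.47 in AGAT-/- mice, FDR = 0.190, edgeR). Mir-1983-3p was the only one of the 5 to pass in AGAT-/- mice (log2 fold change -0.98, FDR = 0.00461, edgeR). The 5 rows were picked by likeness to mir-215-5p over libraries that hold its fall. Their own differences between AGAT-/- and wt mice are therefore descriptions too, and their FDR values are not independent of that choice.

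Other miRNAs linked to p53 were compared as a list: mir-34a, mir-34b, mir-34c, mir-107, mir-143, mir-145a, mir-145b, mir-16-1 and mir-15a. Of their 18 rows, 7 were at 0 and 11 were tested between AGAT-/- and wt mice, where none of the 11 passed in either direction. The rows at 0, the guides mir-34a-5p, mir-34c-5p and mir-107-3p among them, could not be tested. The lower mir-34c-5p and mir-107-3p that the study lists in AGAT-/- mice could therefore not be examined here. The log2 fold change was below 0 for 8 of the 11 rows, against 300 of all 562 rows tested (53.4%), and its median was -0.19, against -0.04 for all rows. Of the mir-34 family, the best known p53 targets of the list, mir-34a-3p was at -0.75 (standard error 0.47), mir-34c-3p at -0.52 (standard error 0.42), and mir-34b-3p and mir-34b-5p both at -0.36 (standard errors 0.38 and 0.21). Mir-107-5p was at -0.36 (standard error 0.40). Of the rows with the most reads, mir-145a-3p was at 0.10 (standard error 0.09), mir-16-1-3p at -0.07 (standard error 0.15), mir-145b-5p at 0.03 (standard error 0.18) and mir-15a-3p at -0.15 (standard error 0.17). The remaining tested rows were mir-143-5p at -0.19 (standard error 0.41) and mir-145a-5p at 0.36 (standard error 0.85). They held 106 and 16 reads over the 15 libraries. In AGAT-/-hArg mice none of the 11 rows tested against AGAT-/- and none of the 10 tested against wt mice passed, with medians of 0.04 and -0.14.

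MiRNAs that share the epithelial and liver expression of mir-192, mir-194 and mir-215 were compared in the same way. Of the list of mir-122, mir-200a, mir-200b, mir-200c, mir-141, mir-429 and mir-203, 5 had rows in the table, and 5 of these 10 rows were at 0. Mir-200b and mir-200c were not analysed here. Mir-429-3p had the most reads, at a mean of 155 CPM in wt, 197 CPM in AGAT-/- and 179 CPM in AGAT-/-hArg mice (log2 fold change 0.34 in AGAT-/- against wt mice, FDR = 0.560, edgeR). Mir-203-5p followed with 63 reads over the 15 libraries, mir-141-5p with 19 and mir-122-3p, the other arm of the main liver miRNA, with 5. None of the rows of this list that were tested passed in any of the 3 comparisons. The 6 rows of the gut and kidney epithelium markers, of which both arms of mir-200a and mir-429-5p were at 0, summed to between 110 and 232 CPM in wt, 154 and 241 CPM in AGAT-/- and 104 and 243 CPM in AGAT-/-hArg libraries. These ranges overlapped, and mir-215-5p alone was several times higher in each library. The sum rests almost wholly on mir-429-3p, with 1217 reads over the 15 libraries, against 19 of mir-141-5p and 1 of mir-141-3p. With the other rows at 0, it sets no upper limit on epithelial miRNAs. Which cells were the source of mir-215-5p was not tested.

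Markers of other cells in LV tissue were summed as well. Those of red blood cells (8 rows, 3 at 0) summed to between 6543 and 7937 CPM in wt and 6412 and 8035 CPM in AGAT-/- libraries. Those of leukocytes (8 rows, 4 at 0) summed to between 60.7 and 126 CPM and between 76.5 and 97.9 CPM, and those of endothelium (2 rows) to between 9.86 and 27.2 CPM and between 6.95 and 26.5 CPM. In AGAT-/-hArg libraries the ranges were 6417 to 8010, 47.9 to 83.8 and 8.21 to 23.1 CPM. The red blood cell rows at 0 were both arms of mir-451a and mir-144-3p. Those of leukocytes were mir-142a-5p, mir-142b-3p, mir-223-3p and mir-150-5p, and mir-150-3p held most of the leukocyte reads. Mir-126a-3p and mir-126a-5p held only 100 and 12 reads over the 15 libraries. The sums therefore do not measure the share of these cells in the tissue. Between AGAT-/- and wt mice, 4 of the 8 red blood cell, 2 of the 8 leukocyte and 1 of the 2 endothelium rows were tested. None of the rows tested passed in any comparison. Of the 8 cardiac muscle rows tested between AGAT-/-hArg and wt mice, only mir-499-5p passed (log2 fold change 0.43, FDR = 0.0131, edgeR). In that comparison 17 of all 569 rows (2.99%) passed. No cardiac muscle row passed in the other comparisons. In AGAT-/- against wt mice the log2 fold change of mir-499-5p was 0.36 (standard error 0.10, unadjusted p = 0.00171, FDR = 0.0639, edgeR). The study lists mir-499-5p among the miRNAs significantly higher in AGAT-/- mice. Between AGAT-/-hArg and AGAT-/- mice its log2 fold change was 0.06 (standard error 0.10), which did not pass.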

How the data were processed

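MiRNA was sequenced from LV tissue of 5 wt, 5 AGAT-/- and 5 AGAT-/-hArg mice. Reads had been assigned to mouse entries of miRBase by the authors in the CLC Genomics Workbench. What they deposited are raw counts, 1 row for each arm of a hairpin, without normalization. The submitters' processing notes name GRCm38, while releases and mismatches are not given in the sources used here. Groups came from the labels.

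Groups were compared in pairs of 10 libraries by the quasi-likelihood test of edgeR 4.0.16 in R 4.3.3 (glmQLFit, glmQLFTest) after TMM normalization. Rows with a sum of more than 10 reads in the compared libraries entered the test, and the FDR threshold was 0.05 (Benjamini-Hochberg over all rows tested). Standard errors are the absolute log2 fold change divided by the square root of F. Log2 CPM used a prior count of 1. The study's methods name DESeq2, which was used as an alternative. The fits were tested on simulated data for AGAT-/- against wt mice, where edgeR recovered 91.2% of 80 miRNAs changed 2-fold with means above 10 reads, among 531 tested, and 49.0% of all 194 changed. In the data only 12 of 562 rows passed. The FDR is easier to pass where many rows are changed, so recovery in the data may be lower than in the simulation. P-values set a difference between groups against the spread between these mice. In comparisons with AGAT-/-hArg mice that difference also holds any effect of the lane.

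The miRNAs and lists were chosen with earlier results of these data known. Named miRNAs are all mir-215, mir-194 and mir-192 rows, the rows of the lists with most reads, the 5 most like mir-215-5p in log2 CPM, and its neighbours in wt level. Cell type markers are named by list. Mir-499-5p, mir-107-5p, mir-143-5p, mir-145a-5p and the mir-34 rows other than mir-34b-5p were named after their values were seen. Alternatives were DESeq2 1.42.0, limma-voom (limma 3.58.1), DESeq2's size factors, total counts, 3 other filters, all 15 libraries in 1 fit, equal mature sequences summed, the 3 most abundant rows left out, the animal number as covariate, and each mouse left out. Of 1836 rows, 1232 (67.1%) matched a RefSeq mature sequence.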

Additional observations from a re-analysis of the deposited data

How the results depend on the processing

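The direction of each difference given for mir-215-5p, mir-215-3p and mir-194-1-3p was kept in every fit that gave a value. For mir-215-5p against wt mice, leaving out a mouse could not reverse the direction, since the groups did not overlap. Its difference between AGAT-/- and wt mice also chose the miRNA, so the values of that difference below are descriptions. The fall of mir-215-5p in AGAT-/- mice was -0.60 on the log2 scale with the animal number as covariate, and ranged from -0.72 to -0.61 when single mice were left out (-0.61 without AGAT-/- mouse 10). With that covariate mir-194-1-3p in AGAT-/- against wt mice was -2.47 in place of -1.52, and mir-215-3p was -0.97 in place of -1.32 (FDR = 0.576, edgeR). In AGAT-/-hArg mice, mir-215-3p was -0.28 in place of -0.68 against wt and 0.35 in place of 0.64 against AGAT-/- mice. None of these differences passed the FDR. Mir-215-3p and mir-194-1-3p could not be fitted with filterByExpr or with more than 10 reads required in every library, since their counts were too low. The number of miRNAs past the FDR between AGAT-/-hArg and AGAT-/- mice was 8 with every row of at least 1 read tested (1114 rows) and 2 with more than 10 reads in every library. Between AGAT-/-hArg and wt mice it was 28 with at least 1 read, 10 with the animal number as covariate, and from 10 to 20 when single mice were left out, lowest without AGAT-/-hArg mouse 15; it was 11 without wt mouse 5. With total counts, the median log2 fold change of all rows between AGAT-/-hArg and wt mice was 0.12 in place of 0.02, and that of mir-215-5p was -0.50. Of the 5 miRNAs most like mir-215-5p, 3 were also among the first 5 by Spearman's rho. No paired analysis was possible because the litter of each mouse is not given in the sources used here, and the animal numbers do not repeat between groups. Depth limits mir-194-1-3p and mir-215-3p, whose libraries held at most 4 and 12 reads.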

Other observations

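With the mean of each group taken away, so that only differences between mice of the same group remained, the 5 miRNAs most like mir-215-5p over the 15 libraries were mir-700-5p (r = 0.74), mir-34b-5p (r = 0.69), mir-429-3p (r = 0.68), mir-6911-3p (r = 0.55) and mir-1981-5p (r = 0.52). The same 5 came first by Spearman's rho. Mir-34b-5p belongs to the mir-34 family, known as p53 targets, and mir-429-3p to the mir-200 family of epithelia. They are a member each of the p53-linked list and of the epithelial and liver list. The other p53-linked rows compared, mir-145a-3p, mir-145b-5p, mir-16-1-3p and mir-15a-3p, were not among the 5. Of the epithelial and liver list, only mir-429-3p had enough reads to be compared. A link of mir-215-5p to p53 or to epithelia was not tested. Mir-34b-5p was at a mean of 46.8 CPM in wt, 37.1 CPM in AGAT-/- and 41.5 CPM in AGAT-/-hArg mice (log2 fold change -0.36 in AGAT-/- against wt mice, FDR = 0.574, edgeR). Mir-429-3p was at a higher mean level in AGAT-/- than in wt mice, the direction opposite to that of mir-215-5p, and did not pass the FDR. These correlations are descriptions over the same libraries, picked as the highest of 176, and carry no test.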
